A study of Homo sapiens with 9 samples.

Results

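The genes described here were 9 human loci that hold envelope or related sequence of endogenous retroviruses, chosen by gene symbol and read from the counts by Ensembl identifier. They were ERVW-1, ERVFRD-1, ERVV-1, ERVV-2, ERVMER34-1, ERV3-1, ERVH48-1, ERVK3-1 and ERVK13-1, and made up 9 of the 60617 genes in the files. RNA-seq was available for 9 libraries of PC-3, an established human cell line of castration-resistant prostate cancer, in 3 groups of 3. The control group (Ctrl) received vehicle, the decitabine group (Dec) received 1 µM of decitabine, and the combination group (Dec_Sam) received 1 µM of decitabine with 200 µM of S-adenosylmethionine (SAM). All cells were harvested after 5 days. Doses and vehicle were taken from the study's methods and the rest from the labels. Decitabine is a cytidine analogue that traps DNA methyltransferases, and SAM is the methyl donor of these enzymes. The series addressed how adding the methyl donor alters what the demethylating agent does to prostate cancer cells. Cells given SAM alone were not analysed here. The labels did not state whether the 3 libraries of a group came from separate cultures, so the p-values measured the spread between these libraries only, and all results apply to 1 cell line.

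Endogenous retroviruses are remnants of ancient germline infections. Most have lost their reading frames, but a few envelope genes were kept by the host. ERVW-1 encodes syncytin-1 and ERVFRD-1 encodes syncytin-2, both of which fuse trophoblast cells into the syncytial layer of the placenta. ERVH48-1 encodes suppressyn, a secreted envelope protein that binds the syncytin-1 receptor SLC1A5 and blocks fusion, while MFSD2A is the receptor of syncytin-2. In most adult tissues the long terminal repeats that drive such genes are held silent by DNA methylation and by histone methylation directed by KRAB zinc finger proteins and TRIM28, and DNA methyltransferase inhibitors are known to release some of them.

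In GENCODE 44 (GRCh38), 8 of the 9 genes were annotated as protein coding, and ERVK13-1 as a long non-coding RNA. ERVW-1 (ENSG00000242950) lies at chr7:92468380-92477986 and ERV3-1 (ENSG00000213462) at chr7:64990356-65006743, both on the minus strand. On chromosome 19 are 3 of the loci, all on the plus strand, namely ERVV-1 (ENSG00000269526) at chr19:53013921-53016123, ERVV-2 (ENSG00000268964) at chr19:53044740-53051680 and ERVK3-1 (ENSG00000142396) at chr19:58305374-58316812. The remaining 4 are on the minus strand, with ERVFRD-1 (ENSG00000244476) at chr6:11102489-11111725, ERVMER34-1 (ENSG00000226887) at chr4:52722618-52751586, ERVH48-1 (ENSG00000233056) at chr21:42916803-42925630 and ERVK13-1 (ENSG00000260565) at chr16:2660348-2682398. ERVV-1 has 1 exon, whereas ERVK13-1 has 47 annotated transcripts.

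Because DNA methylation is placed on CpG dinucleotides, the 250 bases before the annotated start are shown for 4 genes that differ in CpG content. They were taken from RefSeq (GRCh38.p14) and are written 5′ to 3′ in the direction of the gene, with every CpG in capitals.
ERVK3-1, chr19:58305127-58305376, plus strand: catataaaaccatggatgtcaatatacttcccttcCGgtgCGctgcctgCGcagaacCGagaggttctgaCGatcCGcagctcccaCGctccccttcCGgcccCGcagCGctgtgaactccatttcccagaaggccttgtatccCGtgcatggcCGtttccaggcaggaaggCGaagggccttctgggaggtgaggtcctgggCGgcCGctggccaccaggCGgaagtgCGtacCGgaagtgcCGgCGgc
ERVW-1, chr7:92471425-92471674, minus strand: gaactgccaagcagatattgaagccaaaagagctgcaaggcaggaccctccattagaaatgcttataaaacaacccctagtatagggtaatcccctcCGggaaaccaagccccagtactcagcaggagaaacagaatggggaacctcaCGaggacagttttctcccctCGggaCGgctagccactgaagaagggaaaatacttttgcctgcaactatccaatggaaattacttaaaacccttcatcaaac
ERV3-1, chr7:65006688-65006937, minus strand: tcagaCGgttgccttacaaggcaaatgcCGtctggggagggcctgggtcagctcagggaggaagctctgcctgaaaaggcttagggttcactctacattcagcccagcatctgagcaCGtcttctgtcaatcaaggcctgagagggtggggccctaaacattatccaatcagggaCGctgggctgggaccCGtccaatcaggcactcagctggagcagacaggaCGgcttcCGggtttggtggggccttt
ERVMER34-1, chr4:52751426-52751675, minus strand: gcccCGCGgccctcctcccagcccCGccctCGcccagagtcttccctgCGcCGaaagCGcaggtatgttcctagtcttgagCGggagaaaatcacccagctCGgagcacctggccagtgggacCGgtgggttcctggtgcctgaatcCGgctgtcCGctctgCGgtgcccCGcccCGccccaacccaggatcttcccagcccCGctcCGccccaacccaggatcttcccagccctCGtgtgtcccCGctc
The window of ERVK3-1 held 20 CpG sites and that of ERVMER34-1 held 19, while ERV3-1 had 7 and ERVW-1 had 4. Among 35116 RefSeq windows of the same length the median was 11 sites, 93.9% held at least 1, and 70.7% held at least as many as ERVW-1. ERVK13-1 had the most CpG sites of these genes, with 35, a number reached by 5.8% of all windows, and ERVV-1 had 3. A second RefSeq start of ERV3-1, 7301 bases from the GENCODE start, had 3 sites in its window, which lies inside the GENCODE gene. RefSeq and GENCODE placed the start of ERVK3-1 3 bases apart, but those of ERVW-1 and ERVK13-1 6562 and 8959 bases apart, so the windows of these 2 genes lie inside the GENCODE gene and that of ERVW-1 falls within an exon of a non-coding transcript. CG is its own reverse complement, so both strands were covered by 1 search. ERVFRD-1, ERVV-2 and ERVH48-1 were not matched. CpG content is a property of the sequence, and methylation at these windows was not analysed here.

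The libraries held 21934307 to 22489684 estimated counts, a depth at which 3 counts corresponded to 0.127 to 0.150 CPM, the count scaled to library size. Expression is given below as CPM scaled by the trimmed mean of M values (TMM). Of 60617 genes, 18532 passed the filter on low counts and were tested with edgeR's quasi-likelihood test. A gene was called where its Benjamini-Hochberg adjusted p was under 0.05. TMM placed the control libraries at factors of 0.8948 to 0.9021 and the treated ones at 1.0329 to 1.0783. With library size alone, the median change over the tested genes moved from 0.035 to 0.281 on the log2 scale in Dec against Ctrl, and the share of calls that were higher moved from 52.7% to 70.3%. In Dec_Sam against Ctrl the median moved from 0.048 to 0.268 and the share from 53.4% to 69.3%. For the cell line itself, KLK3, which encodes prostate-specific antigen, had no count in any library, while the epithelial keratin KRT18 was at 426 ± 26.2 CPM in Ctrl (SD, n = 3). The epithelial and mesenchymal genes EPCAM, CDH1, KRT8 and VIM were also detected in all groups. CDH1, which encodes E-cadherin, rose from 1.88 ± 0.107 to 14.4 ± 0.639 CPM in Dec, and VIM, which encodes vimentin, fell from 1260.0 ± 47.1 to 590.0 ± 59.8 CPM. KRT8 was also higher in Dec, by 1.14 on the log2 scale (SE 0.08, edgeR adjusted p = 1.6e-08). The other epithelial genes did not rise in this way. KRT18 was at -0.25 (SE 0.08, edgeR adjusted p = 0.014), a call lost with library size alone, and EPCAM was not called, at 0.24 (SE 0.16, edgeR adjusted p = 0.2). In bulk RNA, a change in the number of cells that express a gene and a change in the RNA per cell cannot be told apart.

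Of the 9 genes, 6 passed the filter on low counts. In Dec against Ctrl, 4 of these 6 were higher, namely ERVH48-1, ERVW-1, ERV3-1 and ERVK3-1, none was lower, and ERVMER34-1 and ERVK13-1 did not pass the test. Among all tested genes, 36.3% were called higher and 32.5% lower in this comparison, or 68.8% in either direction. In Dec_Sam against Ctrl, 4 of 6 were higher (ERVH48-1, ERVW-1, ERVMER34-1 and ERVK3-1) and ERVK13-1 was lower, beside 35.9% of all tested genes higher and 31.3% lower, or 67.2% in total. In Dec_Sam against Dec, ERV3-1 was lower and none of the 6 was higher, beside 8.02% of all tested genes lower and 7.67% higher, or 15.7% in total. At an unadjusted p under 0.05, 1 gene was higher and 2 were lower in this last comparison. The share of called genes was thus near the background in all 3 comparisons, and nothing is read from it about the group. The 6 genes had medians of 0.61, 0.83 and -0.36 on the log2 scale in the 3 comparisons, beside 0.035, 0.048 and 0.002 over the tested genes. ERVH48-1 passed the filter only through the treated libraries, so these medians and counts are descriptions. Both comparisons against Ctrl used the same 3 control libraries and are therefore not independent.

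**Figure D1:**
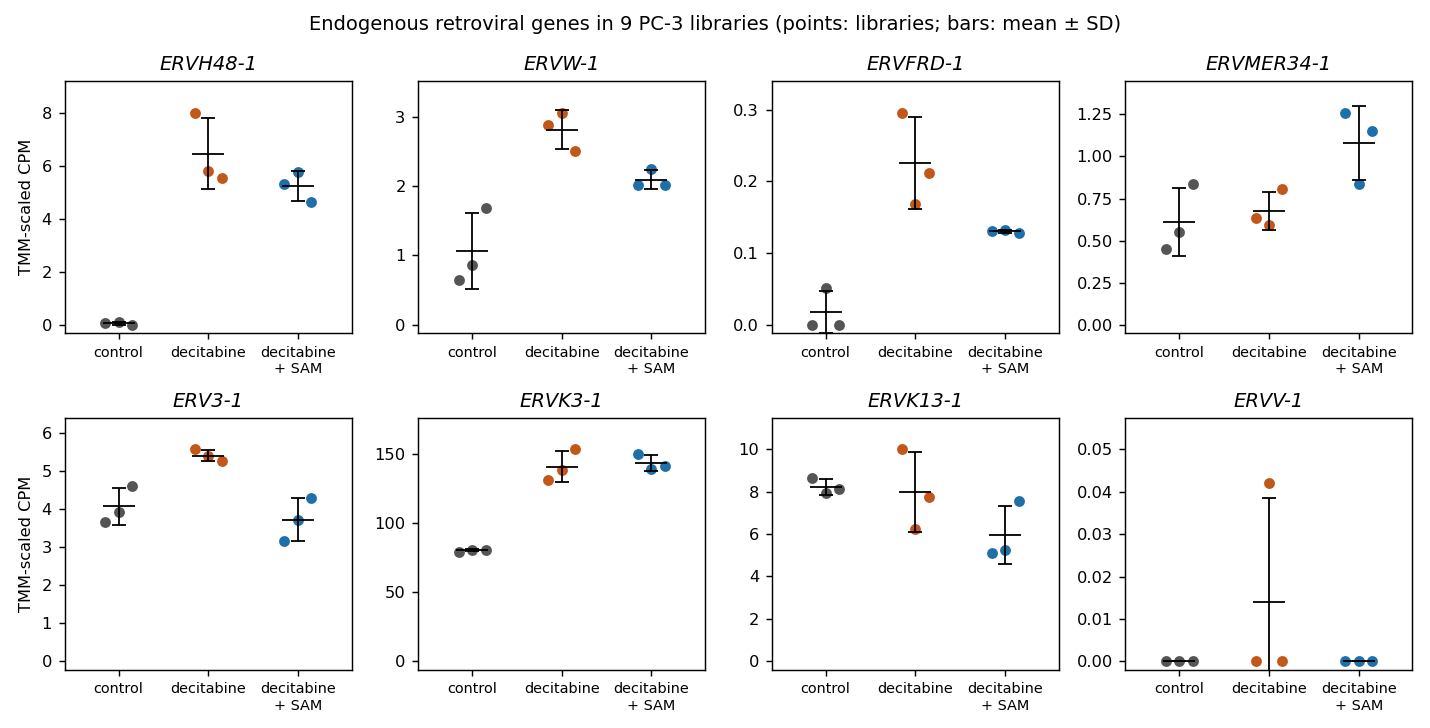
TMM-scaled CPM (y axes, one scale per gene) of 8 of the 9 genes in the control, decitabine and decitabine + SAM libraries. Points are libraries, and bars are the mean ± SD (n = 3). ERVV-2, which had no counts, is left out. The treated libraries of ERVH48-1, ERVW-1, ERVFRD-1 and ERVK3-1 sit above all control libraries, whereas those of ERVK13-1 do not.

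ERVH48-1, the suppressyn gene, changed from near silence to a well-detected level. The 3 control libraries held 1, 2 and 0 counts. The Dec libraries held 189, 138 and 131 counts and the Dec_Sam libraries 122, 131 and 109. Every treated library was far above every control library, and the treated groups overlapped each other. The mean was 0.0499 ± 0.05 CPM in Ctrl, 6.46 ± 1.34 in Dec and 5.24 ± 0.564 in Dec_Sam (SD, n = 3). From the summed counts scaled by library, Dec was 130-fold above Ctrl, with a 95% interval of 44.2 to 632 that covers counting error only. Dec_Sam was 105-fold above Ctrl, with an interval of 35.8 to 513. In edgeR's quasi-likelihood test both differences were called, with adjusted p = 3.1e-09 and 6.1e-09. The fitted log2 fold changes were 6.87 ± 0.39 (SE) and 6.57 ± 0.4, which depend on the prior count because so few counts lie in the controls. Each SE of a log2 fold change in this report is its absolute value divided by the square root of the test's F statistic. For ERVH48-1 against Ctrl this SE is narrower than the counting error in the intervals above, and does not give the precision of the fold change. Without control replicate 2 these became 7.73 and 7.43, and without control replicate 3 they became 6.32 and 6.02. Between Dec_Sam and Dec the log2 fold change was -0.30 ± 0.19 and did not pass the test (edgeR adjusted p = 0.31).

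ERVW-1, which encodes syncytin-1, was detected at a low level in control cells and rose in both treatments. The controls were at 0.65, 0.861 and 1.68 CPM, from 13, 17 and 34 counts. The Dec libraries were at 2.88, 3.06 and 2.51 CPM and the Dec_Sam libraries at 2.01, 2.25 and 2.02 CPM. The 3 groups did not overlap, with Dec highest and Ctrl lowest, and control replicate 3 stood well above the other controls. The log2 fold change was 1.41 ± 0.28 in Dec and 0.97 ± 0.29 in Dec_Sam against Ctrl, with edgeR adjusted p = 0.00049 and 0.0086. Without control replicate 3 these values were 1.90 and 1.46. The lower level in Dec_Sam than in Dec, a log2 fold change of -0.44 ± 0.26, did not pass the test (edgeR adjusted p = 0.27).

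ERVFRD-1, the gene of syncytin-2, did not pass the filter on low counts. It had 0, 1 and 0 counts in Ctrl, 7, 4 and 5 in Dec, and 3, 3 and 3 in Dec_Sam. The treated libraries were all above the controls, and the Dec libraries all above the Dec_Sam libraries, but at a few counts per library. From the scaled sums, Dec was 13.6-fold above Ctrl (95% interval 2.11 to 571) and Dec_Sam 7.86-fold (95% interval 1.09 to 344). The ratio of Dec_Sam to Dec was 0.577, with a 95% interval of 0.225 to 1.39 that includes no change. These intervals cover counting error only. The exact two-sided permutation test gave p = 0.1 for each comparison, the smallest value that 3 against 3 libraries allow. The paired placental envelope genes ERVV-1 and ERVV-2 were essentially not detected. ERVV-1 had 1 count in Dec replicate 2 and none elsewhere, and ERVV-2 had none in any library. At this depth, 3 counts per library, or 0.127 to 0.150 CPM, is the limit that a count of 0 allows.

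ERVK3-1, an envelope-related gene of the HERV-K group, was by far the most abundant of the 9 genes. The controls were at 79.2, 80.6 and 80.6 CPM. The Dec libraries were at 131, 138 and 153 CPM and the Dec_Sam libraries at 150.0, 139 and 141 CPM. Both treated groups were above the controls in every library and overlapped each other. The log2 fold change was 0.81 ± 0.07 in Dec and 0.84 ± 0.07 in Dec_Sam, with edgeR adjusted p = 2.2e-07 and 1.6e-07. The treated groups differed by 0.03 ± 0.07 on the log2 scale (edgeR adjusted p = 0.82). ERVK3-1 took 82.7% to 89.8% of the counts of the 9 genes in each library, so their summed level largely followed it. The sum was 92.6 to 95.8 CPM in Ctrl, 158 to 175 in Dec and 157 to 167 in Dec_Sam. Without ERVK3-1 the sum was 13.4 to 15.2, 21.3 to 27.3 and 17.0 to 19.8 CPM, and the 3 groups did not overlap, whereas Dec and Dec_Sam overlapped in the full sum.

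ERV3-1, one of the first human envelope genes to be described and known for its expression in placenta, was the member that passed the test between the treatments. The controls were at 3.66, 3.93 and 4.61 CPM. The Dec libraries were at 5.56, 5.38 and 5.26 CPM, and the Dec_Sam libraries at 3.16, 3.71 and 4.28 CPM. All Dec libraries were above all other libraries, whereas Dec_Sam overlapped Ctrl. The log2 fold change was 0.41 ± 0.16 in Dec against Ctrl (edgeR adjusted p = 0.037) and -0.54 ± 0.16 in Dec_Sam against Dec (edgeR adjusted p = 0.037). In Dec_Sam against Ctrl it was -0.13 ± 0.17 (edgeR adjusted p = 0.49). Both calls lay close to the threshold. The first was lost without Ctrl replicate 1 or 2, any one of the Dec replicates, or Dec_Sam replicate 2, and the second without Ctrl replicate 2, any Dec replicate, or Dec_Sam replicate 1 or 2.

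ERVMER34-1, which encodes an envelope protein shed from the placenta and some tumours, was low throughout. It had 9, 11 and 17 counts in Ctrl, 15, 14 and 19 in Dec, and 29, 19 and 27 in Dec_Sam. Dec overlapped Ctrl, and the lowest Dec_Sam library, at 0.836 CPM, was level with the highest control at 0.839 CPM. The log2 fold change was 0.82 ± 0.32 in Dec_Sam against Ctrl (edgeR adjusted p = 0.036), and this call was lost without Ctrl replicate 1 or 2 or Dec_Sam replicate 1 or 3. In Dec against Ctrl it was 0.14 ± 0.34 (edgeR adjusted p = 0.73). In Dec_Sam against Dec it was 0.68 ± 0.31 (edgeR adjusted p = 0.15), although these groups did not overlap.

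ERVK13-1, the non-coding member, was the only one of the 6 tested genes called lower against Ctrl. The controls were at 8.65, 7.92 and 8.1 CPM. The Dec libraries were spread over 9.98, 6.21 and 7.73 CPM and the Dec_Sam libraries over 5.1, 5.22 and 7.54 CPM. Dec overlapped Ctrl, while all Dec_Sam libraries lay below the lowest control. The log2 fold change was -0.46 ± 0.19 in Dec_Sam against Ctrl (edgeR adjusted p = 0.04) and -0.04 ± 0.18 in Dec against Ctrl (edgeR adjusted p = 0.85). With library size alone the first became -0.24 with an adjusted p of 0.29, and the call was also lost without any one of the Ctrl replicates or Dec_Sam replicate 1 or 2. In Dec_Sam against Dec it was -0.42 ± 0.18 (edgeR adjusted p = 0.14). Without Dec_Sam replicate 3 it was -0.63 and passed the test (edgeR adjusted p = 0.026).

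**Figure D2:**
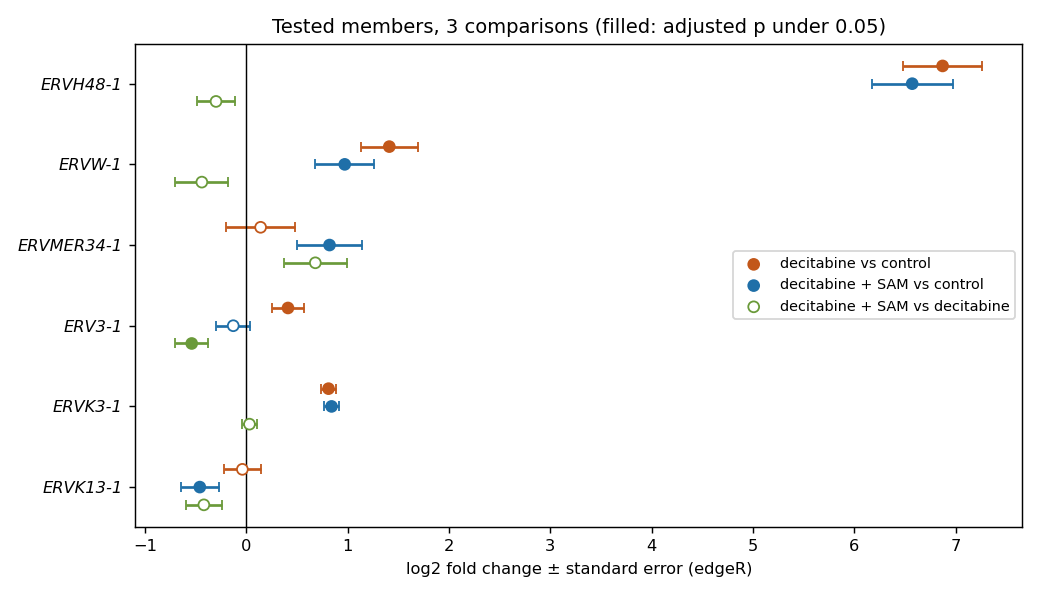
Log2 fold change ± standard error (x axis) from edgeR's quasi-likelihood test for the 6 tested genes in the 3 comparisons. Filled points have an adjusted p under 0.05. Standard errors were derived from the test's F statistic, and those of ERVH48-1 against control are narrower than its counting error. ERVH48-1 stands at 6.87 and 6.57 against control, and ERV3-1 is the gene with a filled point for decitabine + SAM against decitabine, at -0.54.

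Groups that did not overlap gave a similar account. Among the 6 tested genes, 4 were higher in every Dec than in every Ctrl library, beside 38.1% of all tested genes. In Dec_Sam against Ctrl, 3 were higher and 1 was lower in this sense, beside 38% and 33.6% of all tested genes. In Dec_Sam against Dec, ERVMER34-1 was higher and ERVW-1 and ERV3-1 were lower in every library, beside 17.2% and 16.8% of all tested genes.

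The calls of ERVH48-1, ERVW-1 and ERVK3-1 against Ctrl were the steady ones, and held under all 17 alternatives tried. ERVH48-1 passed the filter only through the treated libraries, so its calls and their steadiness are a description. Over these, the log2 fold change in Dec against Ctrl ranged from 6.32 to 7.73 for ERVH48-1, from 1.14 to 1.90 for ERVW-1 and from 0.74 to 1.06 for ERVK3-1. In Dec_Sam against Ctrl the ranges were 6.02 to 7.43, 0.71 to 1.46 and 0.79 to 1.06. The calls of ERV3-1, ERVMER34-1 and ERVK13-1 each depended on single libraries or settings, as given above.

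**Figure D3:**
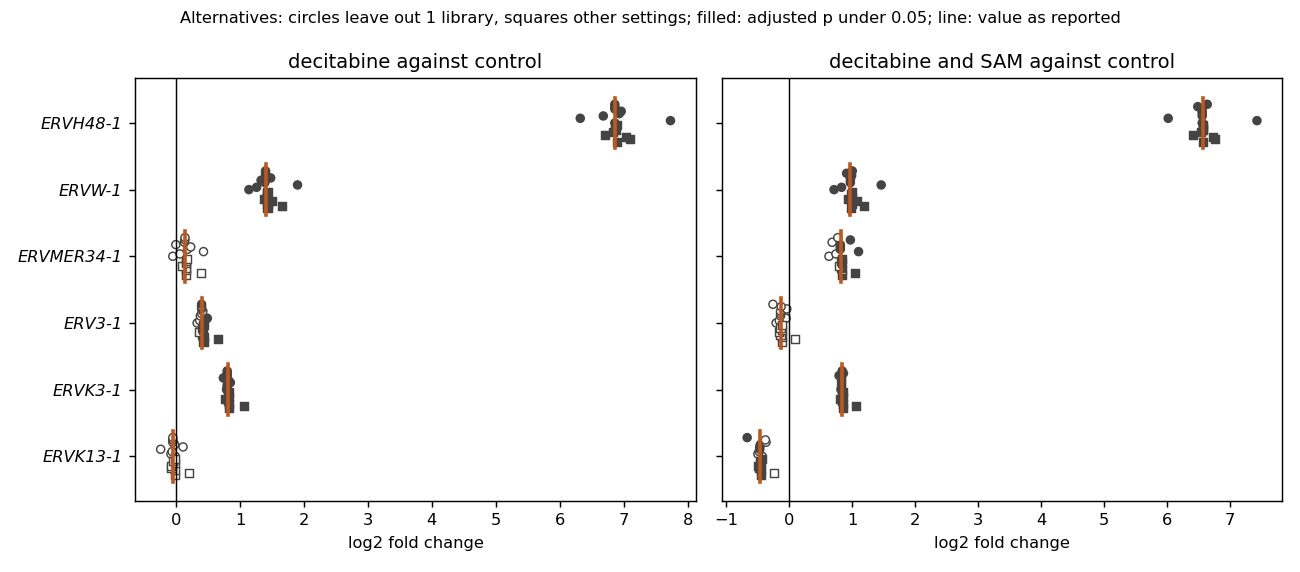
Log2 fold change (x axis) of the 6 tested genes against control under each alternative. Circles leave out 1 library, squares are other settings, filled symbols have an adjusted p under 0.05 and the vertical tick is the value as reported. All symbols of ERVH48-1, ERVW-1 and ERVK3-1 are filled, while ERV3-1, ERVMER34-1 and ERVK13-1 hold open symbols.

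Levels were compared between genes per kilobase of annotated exon. In Ctrl, ERVK3-1 was highest at 13.1 ± 0.137 CPM per kb (SD, n = 3), followed by ERV3-1 at 0.809 ± 0.0974 and ERVK13-1 at 0.67 ± 0.031. ERVW-1 at 0.173 ± 0.0886 and ERVMER34-1 at 0.152 ± 0.0506 CPM per kb followed, and their libraries overlapped. ERVH48-1 at 0.018 ± 0.018 CPM per kb overlapped ERVFRD-1 at 0.00523 ± 0.00906. In both treated groups ERVH48-1 moved from the sixth to the second place, at 2.33 ± 0.483 CPM per kb in Dec and 1.89 ± 0.203 in Dec_Sam, behind ERVK3-1 at 22.9 ± 1.83 and 23.4 ± 0.942. The order below it was ERV3-1 (1.07 ± 0.0295 and 0.739 ± 0.112), ERVK13-1 (0.65 ± 0.155 and 0.485 ± 0.112), ERVW-1 (0.46 ± 0.0463 and 0.341 ± 0.0222), ERVMER34-1 (0.168 ± 0.0281 and 0.269 ± 0.055) and ERVFRD-1 (0.0697 ± 0.02 and 0.0402 ± 0.000662), with no overlap between neighbours in either treated group. The order of the means was the same when the longest transcript was used as the length, but 12 of the 27 levels moved by more than their SD. With that length ERV3-1 and ERVK13-1 were at 1.27 and 1.26 CPM per kb in Ctrl, and their libraries overlapped in Ctrl and in Dec_Sam.

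The cellular partners of these envelope proteins moved in both directions. Of 16 receptors, convertases and placental transcription factors, 13 were tested, of which 6 were higher and 4 lower in both comparisons against Ctrl, and the list's median was 0.08 in Dec and 0.24 in Dec_Sam on the log2 scale. Over all tested genes, 36.3% and 35.9% were higher and 32.5% and 31.3% lower, and nothing is read from the counts about the list. With library size alone, 8 were higher and 1 lower in Dec, and 9 higher and 3 lower in Dec_Sam. Under that scaling 8849 and 8695 of the 18532 tested genes were higher, out of 12595 and 12552 called. SLC1A5, the glutamine transporter that serves as the syncytin-1 receptor, was at 363, 313 and 276 CPM in Ctrl and at 182, 180.0 and 190.0 CPM in Dec. It fell by 0.78 on the log2 scale in Dec (SE 0.09, edgeR adjusted p = 2e-06), and its log2 fold change was -0.69 ± 0.09 in Dec_Sam. SLC1A5 thus fell in the same libraries in which its ligands ERVW-1 and ERVH48-1 rose. SLC1A4, a neutral amino acid transporter that can also serve as a receptor, had log2 fold changes of -0.46 ± 0.12 and -0.70 ± 0.12 (edgeR adjusted p = 0.004 and 0.0002), the first of which became -0.22 and lost its call with library size alone.

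MFSD2A, the lysophospholipid transporter used as the syncytin-2 receptor, rose from 9.94 ± 0.723 CPM in Ctrl to 16.5 ± 2.86 in Dec and 16.2 ± 1.83 in Dec_Sam. Its log2 fold changes were 0.73 ± 0.14 and 0.71 ± 0.14, with edgeR adjusted p = 0.00024 and 0.00034. The list members with the largest change in Dec were GATA2 and GATA3, transcription factors of trophoblast and of many other cells. GATA2 had log2 fold changes of 1.59 ± 0.18 and 2.16 ± 0.18, and GATA3 1.47 ± 0.16 and 1.37 ± 0.16 (edgeR adjusted p of 4e-06 or below for each). GCM1, the placental factor that activates both syncytin genes, was hardly detected, with 0, 2 and 2 counts in Ctrl, 0 in each Dec library and 0, 0 and 3 in Dec_Sam. In Dec_Sam against Dec, 1 of the 13 partners was higher, GATA2 at 0.57 ± 0.16, and 1 lower, the convertase PCSK7 at -0.26 ± 0.07 (edgeR adjusted p = 0.029 and 0.03). These counts stand beside 7.67% of all tested genes higher and 8.02% lower.

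Because trophoblast is the cell type in which syncytins are best known, 26 of its marker genes were examined in the same libraries. Their summed level was 1.61 to 2.32 CPM in Ctrl, 33.5 to 66.4 in Dec and 29.0 to 43.1 in Dec_Sam. Most of this was KISS1, which encodes kisspeptin and rose from 0.0497 ± 0.000332 CPM in Ctrl to 43.7 ± 15.1 in Dec and 28.7 ± 5.58 in Dec_Sam. CGB5, one of several near-identical chorionic gonadotropin beta genes among which reads can be split, was at 0 in Ctrl and at 1.16 ± 0.586 and 1.13 ± 0.227 CPM in the treated groups. Of the 26 markers, 13 were at 0 in all controls and 4 were at 0 in every library, including the placental lactogen CSH1. CGA, the common alpha subunit of gonadotropins, was at 0 in Ctrl and at 0.0282 ± 0.0244 CPM in Dec. Of the 26, 6 passed the filter (all but PLAC1 only through the treated libraries), and all 6 were higher in Dec and in Dec_Sam, beside 36.3% and 35.9% of all tested genes, so this count is a description. PAPPA2, a placental protease gene below the filter, went the other way, at 0.595 ± 0.306 CPM in Ctrl, 0.24 ± 0.0647 in Dec and 0.115 ± 0.065 in Dec_Sam. The part of these markers in the change of the envelope genes was not tested.

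Genes known to keep endogenous retroviruses silent were examined in the same way, and all 29 on the list were tested. In Dec, 5 were higher and 19 lower, with a median of -0.43 on the log2 scale, and in Dec_Sam 3 were higher and 16 lower, with a median of -0.27. Among all tested genes, 36.3% were higher and 32.5% lower in Dec, and 35.9% and 31.3% in Dec_Sam. With library size alone, 8 were higher and 14 lower in Dec (median -0.19) and 10 higher and 12 lower in Dec_Sam (median -0.05). Under that scaling 8849 and 8695 of the 18532 tested genes were higher, out of 12595 and 12552 called. The median over all tested genes moved as well, from 0.035 to 0.281 in Dec and from 0.048 to 0.268 in Dec_Sam. The counts and medians thus depended on the scaling, while the list's median lay below that of all tested genes under both scalings. TRIM28, the corepressor of KRAB zinc finger proteins, fell from 698 ± 21.3 CPM in Ctrl to 348 ± 9.42 in Dec and 357 ± 29.5 in Dec_Sam. SUV39H1, a histone H3 lysine methyltransferase, had log2 fold changes of -1.43 ± 0.09 and -1.09 ± 0.09 (edgeR adjusted p = 9.2e-09 and 1.1e-07). ZFP57, a zinc finger protein that guards imprinted loci, was at 0 in Ctrl and at 0.479 ± 0.106 and 0.782 ± 0.126 CPM in the treated groups, through which alone it passed the filter. In Dec_Sam against Dec, 4 of the 29 were higher, namely UHRF1, HELLS (not called with library size alone), SUV39H1 and CBX5, and PPHLN1 and SMCHD1 were lower. Among all tested genes, 7.67% were higher and 8.02% lower in this comparison. UHRF1, which recruits the maintenance methyltransferase to replicated DNA, was at 152 ± 21.3 CPM in Ctrl, 86.8 ± 2.78 in Dec and 128 ± 13.8 in Dec_Sam, and differed by 0.55 ± 0.10 on the log2 scale between the treated groups (edgeR adjusted p = 0.0039). DNMT1 itself, the target of decitabine, fell from 404 ± 32.7 to 230.0 ± 30.4 CPM in Dec and 237 ± 15.4 in Dec_Sam. TRIM28 was chosen for mention after its values were seen, as were UHRF1 and DNMT1.

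Of 5 other annotated genes whose symbols begin with ERV, ERVH-1 and ERVK9-11 were tested, and neither was called in any comparison. In Dec against Ctrl their log2 fold changes were -0.15 ± 0.35 and 0.69 ± 0.53 (edgeR adjusted p = 0.72 and 0.27). ERVE-1, ERVFRD-3 and ERVK-28 were below the filter.

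Of the 9 loci, 6 overlap another annotated gene, so that reads could be shared between neighbours. Within 20 kb of the 9 genes lay 29 neighbouring entries, of which 16 were tested and 10 overlapped a member. In Dec, 3 of these 16 were higher and 5 lower, and in Dec_Sam 5 were higher and 5 lower, beside 36.3% higher and 32.5% lower, and 35.9% and 31.3%, of all tested genes. Near ERVH48-1, NDUFV3, a mitochondrial complex I gene 3499 bases away, had a log2 fold change of -0.66 ± 0.07 in Dec, opposite to ERVH48-1 (edgeR adjusted p = 1.4e-06). Near ERVW-1, GATAD1 was lower in Dec, at -0.34 ± 0.07, which was not called with library size alone, while the overlapping antisense transcript ENSG00000244055 was higher at 0.63 ± 0.26 (edgeR adjusted p = 0.044). Whether the library kept strand was not given in the sources used here, so reads of ERVW-1 and of this antisense transcript may not be separable.

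ERVK3-1 shares exons or territory with a readthrough transcript and other entries. ZNF8-ERVK3-1 was at -0.61 ± 0.45 in Dec, ENSG00000283515 at 0.50 ± 0.25 and ENSG00000283103 at 0.01 ± 0.14 on the log2 scale, none of which passed the test (edgeR adjusted p = 0.25, 0.091 and 0.95). In Dec_Sam, ENSG00000283103 was higher than in Ctrl and in Dec, at 0.55 ± 0.14 and 0.54 ± 0.14 (edgeR adjusted p = 0.0027 and 0.018), and ENSG00000283515 was lower than in Dec, at -1.11 ± 0.26 (edgeR adjusted p = 0.013). The most abundant of these, ENSG00000283103, was at 12.1 ± 0.706 CPM in Ctrl, against 80.1 ± 0.839 CPM for ERVK3-1. The adjacent ZNF8 was lower at -0.52 ± 0.13 in Dec (-0.27 and not called with library size alone), and ZSCAN22 was at -0.04 ± 0.14. ERV3-1 overlaps the zinc finger gene ZNF117 on the same strand, for which the log2 fold change was 0.50 ± 0.27 in Dec and -0.42 ± 0.26 in Dec_Sam against Dec (edgeR adjusted p = 0.11 and 0.3). The kallisto assignment of reads between ERV3-1 and ZNF117 is therefore uncertain.

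The silent ERVV-1 lies within ZNF702P, a zinc finger pseudogene on the opposite strand that rose from 1.56 ± 0.204 to 12.3 ± 1.49 CPM in Dec and 7.87 ± 0.375 in Dec_Sam, with log2 fold changes of 2.98 ± 0.16 and 2.33 ± 0.16. ZNF702P was also lower in Dec_Sam than in Dec, at -0.64 ± 0.13 (edgeR adjusted p = 0.0062). ZNF160, near ERVV-2, was at 0.16 ± 0.08. At ERVMER34-1, the overlapping non-coding gene DANCR fell by 2.21 on the log2 scale in Dec (SE 0.14, edgeR adjusted p = 6.2e-09). DANCR was higher in Dec_Sam than in Dec, at 0.63 ± 0.14 (edgeR adjusted p = 0.0094), the direction in which ERVMER34-1 also differed there. Whether reads were shared between DANCR and ERVMER34-1 was not tested. LINC01618, which passed the filter only through treated libraries, had 1, 2 and 0 counts in Ctrl, 4, 3 and 17 in Dec and 9, 13 and 13 in Dec_Sam, so that Dec replicate 3 held most of its Dec counts. SMIM13, which overlaps ERVFRD-1 on the opposite strand, was at 0.18 ± 0.09 in Dec and higher in Dec_Sam against Ctrl, at 0.44 ± 0.09 (edgeR adjusted p = 0.00057). KCTD5, which starts 125 bases from ERVK13-1, was at 0.12 ± 0.07 in Dec. Like ERVK13-1, KCTD5 was lower in Dec_Sam against Ctrl, at -0.20 ± 0.07 (edgeR adjusted p = 0.023), a call lost with library size alone, and it was also lower in Dec_Sam against Dec, at -0.32 ± 0.07 (edgeR adjusted p = 0.0098).

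**Figure D4:**
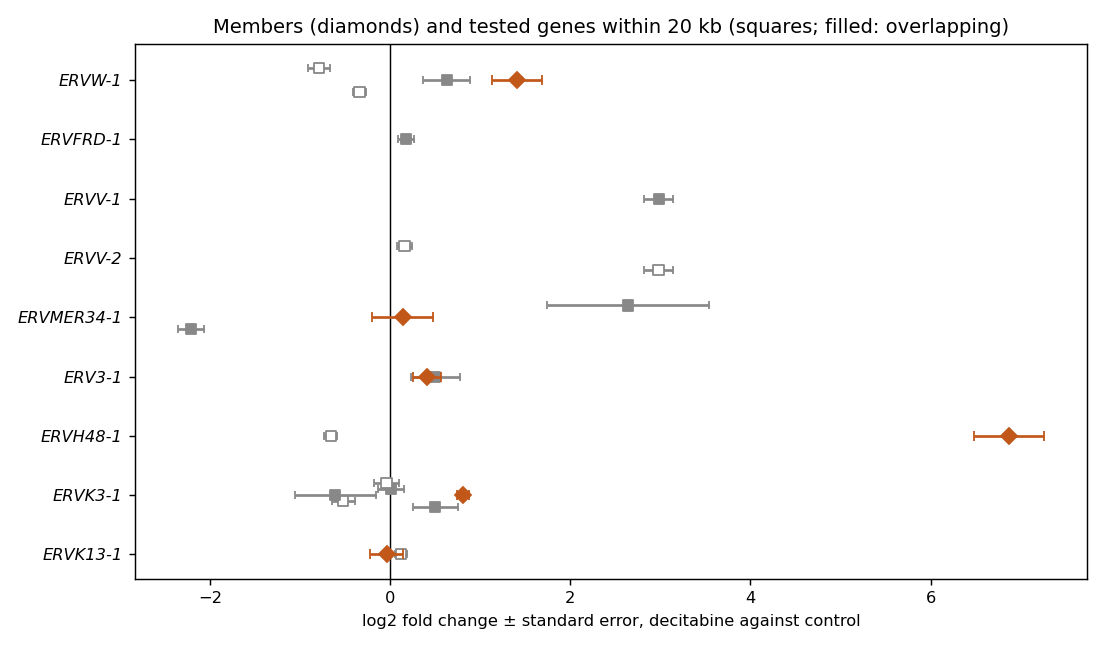
Log2 fold change ± standard error (x axis) in decitabine against control for the 6 tested genes (diamonds) and for tested genes that overlap a member (filled squares) or lie within 20 kb of one (open squares), with 1 row per member. ERVH48-1 at 6.87 stands opposite to its neighbour NDUFV3 at -0.66, and ZNF702P, drawn in the rows of both ERVV-1 and ERVV-2, is at 2.98. Standard errors were derived from the test's F statistic, and that of ERVH48-1 is narrower than its counting error.

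The genes most similar in pattern to each tested member over the 9 libraries were found among the other 18531 tested genes by Pearson's r of log2 CPM. The libraries share groups, so such values describe group patterns more than single libraries, and with this many genes high values arise for each. ERVH48-1 was most like HCG11 and MAGEB10 (r = 0.998 for each), and ERVK3-1 most like ENSG00000238142 and LINC02575 (r = 0.997 for each). ERVW-1 was most like ENSG00000286996 (r = 0.989) and PPP4R3A (r = 0.982), and ERV3-1 was close to BMPR2 (r = 0.978). ERVMER34-1 was most like CWC25 (r = 0.956) and TBX2-AS1 (r = 0.955), and ERVK13-1 most like GARS1-DT (r = 0.978) and RPL32P3 (r = 0.948). Among the members themselves, ERVH48-1 and ERVK3-1 were the most alike (r = 0.97), ERVW-1 stood at 0.82 to each of them, and ERVMER34-1 and ERVK13-1 were the least alike (r = -0.52).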

How the data were processed

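The 9 libraries were sequenced on the BGISEQ-500 from total RNA. Per the study's methods, the authors trimmed reads with Trim Galore 0.6.4 and counted them with kallisto against GRCh38.p13. The values used were the deposited estimated counts per Ensembl gene, with decimals and not normalized. The authors' log2 CPM tables, made from the same counts, were not used. Groups and replicate numbers came from the labels. Counts were rounded, filtered with filterByExpr to 18532 genes, scaled by TMM and tested with edgeR 4.0.16 (robust glmQLFit and glmQLFTest, R 4.3.3) in 1 fit over 9 libraries, with Benjamini-Hochberg adjustment over all genes tested at 0.05. The common dispersion was 0.00977. Genes below the filter were given as counts with ratios of summed counts and exact 95% intervals. The test was also run on simulated data, in 5 draws over all genes tested. For decitabine against control, 94.1% of the changed genes were recovered and 5.44% of calls were false. The 5 draws held 997 changed genes in total, whereas 12759 of 18532 genes were called in the data themselves. These rates therefore describe a setting with few changed genes. They were not measured where most genes change, nor by size of change. No 2 libraries of a group agreed within sampling noise (chi-square per degree of freedom 5.86 to 23.45).

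The study used voom and limma, and here limma 3.58.1 and DESeq2 1.42.0 served as alternatives, beside other scalings, filters, a replicate block and leaving out each library. Gene names, positions and exon lengths came from GENCODE 44, which held 60357 of the 60617 identifiers, and sequences from RefSeq. Members of each list were counted in full. All 9 genes were described, of each list the 2 tested genes with the largest absolute log2 fold change in decitabine against control were named, with SLC1A5, SLC1A4, MFSD2A and GCM1, all genes within 20 kb that were tested, and for each tested member the 2 genes with the highest correlation. A few genes that this rule names are not reported here. The genes and lists were chosen with earlier results of these data known. The lists were envelope partners, trophoblast markers, gag- and pol-derived genes, silencing factors, prostate line and luminal markers, and other genes named ERV.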

Additional observations from a re-analysis of the deposited data

How the results depend on the processing

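Over all alternatives, 89 of 108 counts of called members stayed within 1.5 times the reported count. Of the log2 fold changes, 270 kept their direction and their side of the threshold, 27 lost a call, 1 gained one and 7 changed sign, none of them a called value. The replicate block left every member count as reported, with 4 genes higher in Dec and 4 higher and 1 lower in Dec_Sam against Ctrl, and changed no other call (ERV3-1 in Dec_Sam against Dec, -0.55 with adjusted p = 0.025 by edgeR). Same-numbered libraries correlated at -0.017 to 0.233, with 2 of 9 pairs above 0.1. Both of these pairs lay between Dec_Sam and Dec, at 0.233 for replicate 1 and 0.229 for replicate 3. Replicate 1 of either group against replicate 3 of the other was at -0.22. Whether same-numbered libraries of Dec and Dec_Sam shared a batch was not tested. A required log2 fold change over 1 left 2 genes higher in Dec, 1 higher and 0 lower in Dec_Sam against Ctrl, and 0 lower in Dec_Sam against Dec, by construction. Library size alone left 0 lower in Dec_Sam against Ctrl, and gave ERVK13-1 a log2 fold change of 0.20 in Dec and ERV3-1 one of 0.09 in Dec_Sam against Ctrl. No filter, which tested 8 members, and only the 6 libraries compared each left 0 lower in Dec_Sam against Dec. Leaving out each library gave 3 to 4 higher in either comparison against Ctrl, 0 to 1 lower in Dec_Sam against Ctrl and 0 to 2 lower in Dec_Sam against Dec, the 2 being without Dec_Sam replicate 3. Sign changes among values that had not passed the test came with ranges of -0.05 to 0.43 for ERVMER34-1 in Dec (-0.05 without Ctrl replicate 1, -0.0024 without Dec replicate 3), -0.24 to 0.11 for ERVK13-1 in Dec (0.11 without Dec replicate 2) and -0.02 to 0.09 for ERVK3-1 in Dec_Sam against Dec (-0.02 and -0.01 without Dec or Dec_Sam replicate 1). Among other settings, no filter ended the call of ERV3-1 in Dec and in Dec_Sam against Dec (adjusted p = 0.12 and 0.051) and, with DESeq2, that of ERVMER34-1 in Dec_Sam (0.08 and 0.095). The cause of these losses was not tested. Depth limits ERVFRD-1, ERVV-1 and ERVV-2 most, which lie near or below 3 counts.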

Other observations

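Genes that descend from the gag or pol parts of retroelements, as opposed to envelopes, were examined as a further list of 31. Of the 22 tested, 11 were higher and 5 lower in Dec, and 12 were higher and 3 lower in Dec_Sam against Ctrl, beside 36.3% higher and 32.5% lower, and 35.9% and 31.3%, of all tested genes. The list had medians of 0.31 and 0.34 on the log2 scale. With library size alone, 16 were higher and 3 lower in Dec. Under that scaling 8849 of the 18532 tested genes were higher, out of 12595 called. Their summed level was 1070.0 to 1090.0 CPM in Ctrl, 1190.0 to 1320.0 in Dec and 1200.0 to 1300.0 in Dec_Sam, a difference about the size of the level that PNMA5 alone gained. The largest changes were in the paraneoplastic antigen family, whose members derive from a gag gene. PNMA5 went from 0.0166 ± 0.0287 CPM in Ctrl to 166 ± 21.7 in Dec and 139 ± 8.71 in Dec_Sam (SD, n = 3), and PNMA6E from 0 to 12.3 ± 1.2 and 10.3 ± 1.45. Both passed the filter only through the treated libraries, as did PNMA2, PNMA3, CCDC8 and RTL1, so their part in the counts above is a description. PNMA6E has near-identical relatives, among which kallisto can split reads.

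Other members of the same list moved in both directions. PEG10, an imprinted gene with a retained gag and pol frame that is needed for placental development, was at 273 ± 26.8 CPM in Ctrl, 208 ± 36.4 in Dec and 190.0 ± 15.7 in Dec_Sam, and had log2 fold changes of -0.39 ± 0.12 and -0.52 ± 0.12 (edgeR adjusted p = 0.01 and 0.0018), the first of which lost its call with library size alone, at -0.15. RTL1, an imprinted gene of the same kind, was at 0.529 ± 0.425 CPM in Ctrl, 2.61 ± 1.17 in Dec and 2.09 ± 0.939 in Dec_Sam, with log2 fold changes of 2.29 ± 0.57 and 1.97 ± 0.58 (edgeR adjusted p = 0.0046 and 0.012). Because RTL1 needed its treated libraries to pass the filter, these values are a description. ZCCHC18 was lower in Dec, at -1.53 ± 0.33, and higher in Dec_Sam than in Dec, at 1.13 ± 0.34 (edgeR adjusted p = 0.00086 and 0.036). PEG10, RTL1 and ZCCHC18 were chosen after their values were seen. Of the luminal prostate genes, TMPRSS2 was at 0.0165 ± 0.0285 CPM in Ctrl, 0.169 ± 0.0849 in Dec and 0.073 ± 0.0671 in Dec_Sam.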
